A study of Mus musculus with 20 samples.

Results

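The 10 genes studied here belong to de novo lipogenesis, the making of fatty acids from acetyl-CoA, and were followed through 3 histone marks in fasted mouse liver. The genes were Srebf1, Mlxipl, Acly, Acaca, Acacb, Fasn, Scd1, Elovl6, Me1 and Pnpla3, which are 10 of the 21900 protein-coding genes in the RefSeq table of mouse assembly mm10 (GRCm38.p6). They were chosen by name, and a genomic interval was counted as theirs when its midpoint lay in the gene body or within 10000 bases of it. By this rule they held 127 of the 65776 H3K27ac intervals, 162 of the 103014 H3K4me1 intervals and 77 of the 46568 H3K9ac intervals in the authors' deposited consensus sets. The value of an interval in a library is its fold, the highest peak pileup over local background among that library's own overlapping peaks, and an interval with no overlapping peak is said to have no call. H3K27ac and H3K9ac are acetylation marks of active promoters and enhancers, and H3K4me1 is a methylation mark found at enhancers.

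Flash-frozen livers came from male C57BL/6 mice on chow, 9 weeks old, after a fast of 24 hours. The study compared 4 genotypes, with 2 livers of each for H3K27ac and H3K4me1: wild type (WT), liver knockout of Cpt2 (Cpt2 L-/-, here Cpt2 KO), whole-body knockout of Ppara (Ppara -/-, here Ppara KO) and the double knockout (Cpt2 L-/- ; Ppara -/-, here DKO). For H3K9ac there was 1 WT and 1 Cpt2 KO liver. Cpt2 is a carnitine palmitoyltransferase of the inner mitochondrial membrane that long-chain fatty acid oxidation needs, and Ppara is a nuclear receptor that is activated by fatty acids and drives the oxidation genes of the fasted liver. How Cpt2 was deleted in the liver, and which alleles the WT mice carried, is not given in the sources used here. The animal numbers in the peak names were the same for both marks, so a genotype's H3K27ac and H3K4me1 values come from the same pair of livers. Read totals were not used here, so depth in reads is unknown. The H3K27ac libraries held from 44454 to 48929 peaks and the H3K4me1 libraries from 61189 to 72151.

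The labels were checked at the targeted genes. The H3K27ac interval of Cpt2 at chr4:107901663-107903225 was called in both WT livers (7.77 and 9.87) and both Ppara KO livers (4.78 and 5.52), and in no Cpt2 KO or DKO liver. The Ppara interval at chr15:85807161-85809538 was called in both WT livers (6.17 and 6.57) and both Cpt2 KO livers (5.21 and 5.43), and in no Ppara KO or DKO liver. All 7 hepatocyte markers on the list used (Alb, Apoa1, Apob, Ttr, Serpina1a, Cps1 and Tat) had a call in all 8 libraries. Markers of other liver cells were not level between genotypes. The summed fold of 4 Kupffer cell markers was from 5.96 to 6.95 for WT, 16.2 to 31.2 for Cpt2 KO, 8.85 to 9.30 for Ppara KO and 36.0 to 44.3 for DKO, and 3 of the 4 (Cd5l, Vsig4 and Adgre1) were called only in livers without Cpt2. For 4 endothelial markers the sums were 54.8 to 63.2, 84.2 to 92.2, 61.1 to 72.4 and 94.8 to 101.3 in the same order. For 4 stellate cell markers they were 16.8 to 20.4, 33.9 to 41.1, 7.26 to 15.4 and 27.2 to 34.8. For 3 leukocyte markers they were 10.2 to 16.5, 19.6 to 22.9, 14.9 to 19.4 and 24.0 to 24.3. A marker with no call added nothing to a sum, so the sums mix the presence of a peak with its fold. Sox9, the only one of 4 cholangiocyte markers with a call, ran the other way, at 12.4 and 19.7 for WT, no call for Cpt2 KO, 5.81 and 7.25 for Ppara KO and 6.69 and 9.57 for DKO. Not every marker followed the sums of its cell type. Endothelial Kdr was 17.8 and 18.5 for WT beside 19.1 and 16.0 for Cpt2 KO. Stellate Des was 9.27 and 11.0 for WT, 6.61 and 9.67 for Cpt2 KO and 8.37 and 7.93 for DKO. Sums of 3 adipocyte markers were 32.7 to 47.6 for WT and 49.4 to 56.0 for Cpt2 KO. For Ppara KO they were 29.3 to 35.3 and for DKO 36.4 to 41.25. The hepatocyte markers did not move together. Serpina1a was highest in WT, at 22.2 and 35.6 against 11.5 to 18.4 in the knockouts. Cps1 was lowest in WT, at 17.8 and 16.6 against 25.7 to 38.5. The summed fold of all 7 was 130.3 to 135.4 for WT and 124.3 to 146.4 for Cpt2 KO. For Ppara KO it was 129.4 to 149.2 and for DKO 153.3 to 181.6. The part of these markers in the differences between livers with and without Cpt2 was not tested. In whole liver, fewer cells with a mark and less of it per cell cannot be told apart.

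The pathway begins when citrate leaves the mitochondria and Acly splits it to cytosolic acetyl-CoA. Acaca and Acacb carboxylate acetyl-CoA to malonyl-CoA, which feeds synthesis and, from Acacb at the mitochondrial surface, inhibits the entry of fatty acids into oxidation. Fasn builds palmitate with NADPH, part of which comes from Me1, and Elovl6 and Scd1 then lengthen and desaturate the product. Srebf1, which encodes the insulin-responsive factors SREBP-1a and SREBP-1c, and Mlxipl, which encodes the glucose-responsive factor ChREBP, switch the pathway on in the fed liver, and fasting is known to lower it. Pnpla3 encodes a lipid droplet protein whose gene is a target of SREBP-1c.

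Promoter sequences are shown for the starts on which the H3K27ac results turn: the downstream start of Srebf1, both starts of Mlxipl, and the starts of Fasn, Elovl6 and Me1. They are RefSeq windows of GRCm38.p6, 250 bases before the start to 50 after it, written 5′ to 3′ on the gene's strand, and capitals mark every match to a searched motif on either strand.
Srebf1, downstream start, chr11:60210422-60210721, minus strand: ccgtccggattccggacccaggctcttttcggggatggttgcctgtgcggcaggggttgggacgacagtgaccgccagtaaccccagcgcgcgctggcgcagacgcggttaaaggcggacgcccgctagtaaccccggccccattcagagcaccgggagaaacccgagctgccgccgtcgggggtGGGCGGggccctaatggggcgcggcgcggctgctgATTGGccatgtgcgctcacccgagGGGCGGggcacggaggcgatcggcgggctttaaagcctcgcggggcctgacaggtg
Mlxipl, upstream start, chr5:135089640-135089939, plus strand: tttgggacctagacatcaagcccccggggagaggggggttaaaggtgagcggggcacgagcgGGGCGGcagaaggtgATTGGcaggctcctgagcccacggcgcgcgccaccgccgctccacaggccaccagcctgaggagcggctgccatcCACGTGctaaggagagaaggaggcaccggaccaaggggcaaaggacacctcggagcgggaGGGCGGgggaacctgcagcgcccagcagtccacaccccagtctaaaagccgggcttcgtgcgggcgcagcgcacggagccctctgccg
Mlxipl, downstream start, chr5:135106641-135106940, plus strand: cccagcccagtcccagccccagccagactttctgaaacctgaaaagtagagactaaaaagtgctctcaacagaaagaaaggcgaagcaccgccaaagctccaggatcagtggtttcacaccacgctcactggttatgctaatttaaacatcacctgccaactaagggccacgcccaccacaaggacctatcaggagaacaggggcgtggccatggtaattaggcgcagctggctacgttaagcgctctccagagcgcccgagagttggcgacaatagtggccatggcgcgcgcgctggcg
Fasn, chr11:120824498-120824797, minus strand: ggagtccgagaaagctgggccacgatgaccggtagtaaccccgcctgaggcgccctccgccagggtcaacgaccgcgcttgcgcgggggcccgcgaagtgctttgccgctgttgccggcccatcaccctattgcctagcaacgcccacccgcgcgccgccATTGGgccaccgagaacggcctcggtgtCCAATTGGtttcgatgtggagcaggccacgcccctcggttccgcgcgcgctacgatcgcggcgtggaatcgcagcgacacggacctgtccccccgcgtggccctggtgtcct
Elovl6, chr3:129532136-129532435, plus strand: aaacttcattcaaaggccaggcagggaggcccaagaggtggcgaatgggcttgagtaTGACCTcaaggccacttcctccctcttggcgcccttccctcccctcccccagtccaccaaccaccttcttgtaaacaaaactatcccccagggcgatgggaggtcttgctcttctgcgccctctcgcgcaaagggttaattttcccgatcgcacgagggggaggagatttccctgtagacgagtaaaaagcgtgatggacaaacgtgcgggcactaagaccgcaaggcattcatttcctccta
Me1, upstream start, chr9:86695865-86696164, minus strand: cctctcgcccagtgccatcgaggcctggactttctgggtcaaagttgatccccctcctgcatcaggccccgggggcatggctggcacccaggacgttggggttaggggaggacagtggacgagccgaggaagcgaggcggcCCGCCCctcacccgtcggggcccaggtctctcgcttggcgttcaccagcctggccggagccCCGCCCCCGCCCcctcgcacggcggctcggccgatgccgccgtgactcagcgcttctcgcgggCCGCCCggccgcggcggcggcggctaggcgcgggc

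Windows were matched for 9 of the 10 genes (all but Scd1), 13 starts in all, among 32817 windows in the table. The sterol regulatory element TCACCCCAC, a site of SREBP proteins, was in 0 of the 13 and in 0.552% of all windows. The E box CACGTG was in 1 of the 13, at 98 to 93 bases before the upstream start of Mlxipl, and in 7.15% of all windows. No window, of these genes or others, held 2 such E boxes 5 bases apart, the spacing of a carbohydrate response element. The nuclear receptor core site AGGTCA was in 3 of the 13 and in 16.3% of all. Its direct repeats spaced by 1 base, as PPARA sites are, or by 4, as LXR sites are, were in 0 of the 13 and in 0.0396% and 0.0152% of all. The CCAAT box, bound by NF-Y, was in 8 of the 13 and 37.4% of all, and the GGGCGG box, bound by Sp1, in 6 of the 13 and 35.6% of all. Fasn had 3 CCAAT matches, of which 2 overlapped on opposite strands at 62 to 55 bases before the start, and the upstream Me1 window had 4 GGGCGG matches. These are matches of letters, not sites shown to be bound.

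Called H3K27ac at these genes was most widespread in WT liver. WT livers had calls at 76 and 90 of the 127 intervals, Cpt2 KO livers at 42 and 48, Ppara KO livers at 40 and 54, and DKO livers at 47 and 44. WT livers were both above all 6 knockout livers. The number of intervals called over the whole genome did not follow that order: it was 34347 and 33878 in WT and ran from 32126 to 38796 in the others, so that these genes held 0.221% and 0.266% of a WT liver's called intervals and 0.113% to 0.168% of a knockout liver's. H3K4me1 calls were also most frequent in WT, with 108 and 106 of 162 intervals called for WT, 79 and 83 for Cpt2 KO, 79 and 78 for Ppara KO and 71 and 67 for DKO. These were 0.222% and 0.209% of a WT liver's called H3K4me1 intervals and 0.128% to 0.168% of a knockout liver's. In H3K27ac, 47 of the 127 intervals (37.0%) were called in 1 library only, against 27.2% of all intervals, and 23 (18.1%) in all 8, against 27.8%. In H3K4me1, 42 of 162 (25.9%) were called in all 8, against 19.0% of all intervals.

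**Figure D1:**
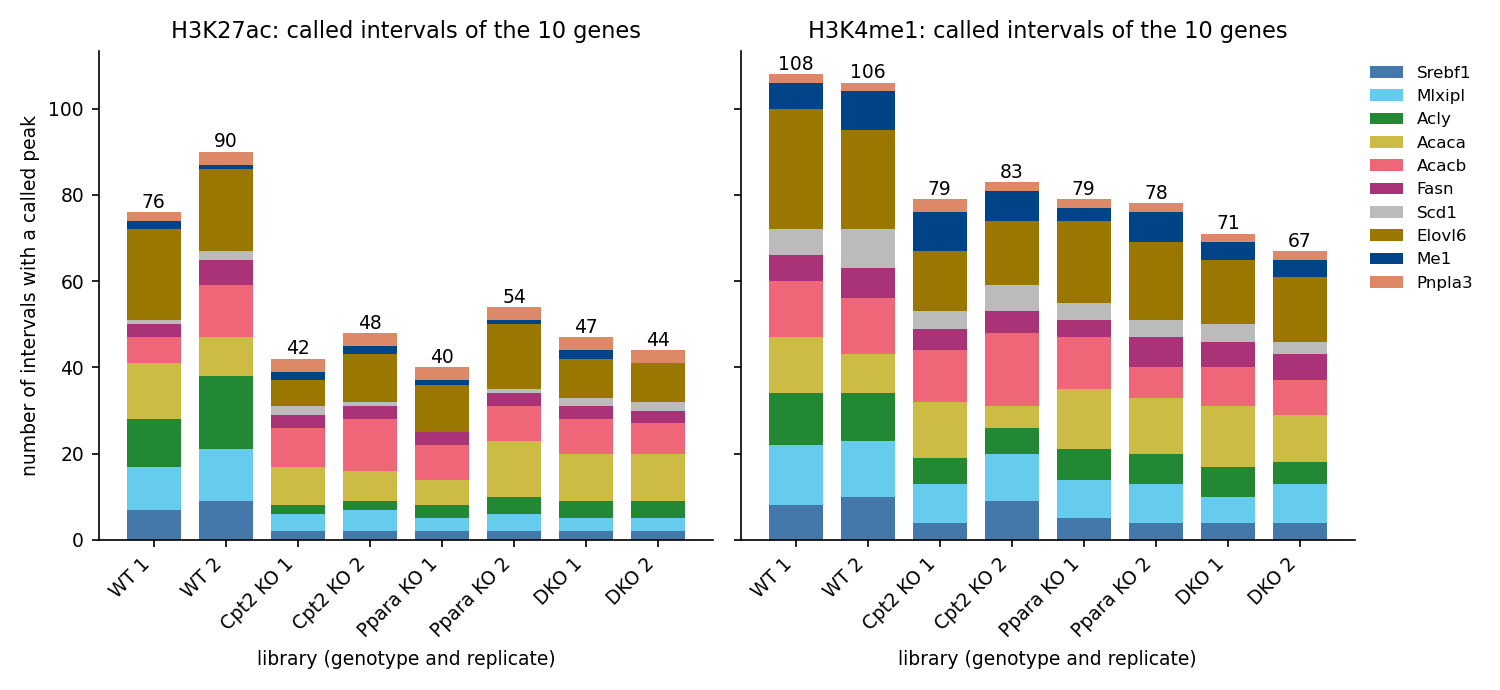
Stacked bars give the number of intervals of the 10 genes with a called peak in each library (left, H3K27ac; right, H3K4me1; colour, gene; number on top, sum). WT livers reach 76 and 90 in H3K27ac and 108 and 106 in H3K4me1, above every knockout liver, and Acly and Elovl6 lose the most H3K27ac calls.

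An interval was counted as lost when both livers of WT and neither of a knockout had a call, and as gained in the reverse case. Losses of H3K27ac made up a larger share of these genes' intervals than of all intervals. Cpt2 KO liver lost 26 of 127 intervals (20.5%, against 6.64% of all 65776) and gained 5 (3.94%, against 9.72%). Ppara KO liver lost 18 (14.2%, against 5.41%) and gained 1 (0.787%, against 5.01%). DKO liver lost 21 (16.5%, against 8.0%) and gained 3 (2.36%, against 12.6%). Acly with 9 and Elovl6 with 8 accounted for most of the Cpt2 KO losses, followed by Srebf1 and Mlxipl with 3 each. The 3 comparisons share the WT livers, and the intervals of a gene lie side by side, so these shares are descriptions without a test. Across the 4 livers of a state, a loss was a call in at least 3 of the 4 livers with the gene and none of the 4 without it. By that count Cpt2 loss removed 4 intervals (3.15%, against 2.49% of all) and added 2 (1.57%, against 4.5%). Ppara loss removed 2 (1.57%, against 1.73%) and added 0 (0.0%, against 1.63%). The shares removed were near the background, and the shares added were below it.

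Folds were tested at the 23 H3K27ac intervals called in all 8 livers, which lie at 8 of the genes; Me1 and Scd1 had none. Acetylation was lower without Cpt2 at 5 of the 23, 1 each at Srebf1, Mlxipl, Acaca, Fasn and Elovl6, and higher at 0. Over all 18281 intervals tested with limma, 7.38% were lower and 4.9% higher without Cpt2 (DKO and Cpt2 KO against WT and Ppara KO). The median log2 difference was -0.18 at these genes and -0.01 over all intervals. Without Ppara, 1 of the 23 was higher, at Elovl6, and 0 were lower, against 3.19% and 4.15% of all intervals, with medians of 0.02 and -0.01. No interval passed for the interaction, the difference between the Cpt2 effects with and without Ppara (0.00547% of all intervals passed). Limma's unadjusted p was under 0.05 at 7 of the 23 and at 2771 of all 18281. The lowest limma adjusted p of the 23 was 0.138.

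Against WT, 5 of the 23 intervals were lower and 0 higher in Cpt2 KO (7.69% and 5.82% of all intervals), 2 were lower and 1 higher in Ppara KO (3.59% and 2.83%), and 7 were lower and 2 higher in DKO (11.5% and 8.62%). Medians were -0.53, -0.06 and -0.13 on the log2 scale, beside -0.03, -0.03 and -0.04 over all intervals, and all 3 comparisons share the WT livers. Averaged over the tested intervals of a gene, 2 of 8 genes were lower without Cpt2, where 5.42% of 11264 genes passed downward. They were Srebf1 (-0.70 ± 0.12 SE, limma adjusted p = 0.011) and Fasn (-0.82 ± 0.19, adjusted p = 0.0247). Mean Srebf1 differences from WT were -1.05 (DKO), -1.0 (Ppara KO) and -1.36 (Cpt2 KO), with limma adjusted p = 0.00414, 0.0143 and 0.00452. For Fasn they were -1.35, -1.3 and -1.6 in the same order (adjusted p = 0.00905, 0.0254 and 0.00989). Since DKO lay near Ppara KO at both genes, the pooled Cpt2 difference came mainly from livers with Ppara. The Srebf1 mean took in 2 intervals, at -1.22 and -0.18 for Cpt2 loss. Both calls for Cpt2 loss ended without centring or with peak width as a covariate, and that of Srebf1 also with its highest interval alone. No left-out library ended the call of Srebf1. That of Fasn, which rests on 1 interval, ended without Cpt2 KO replicate 1, Ppara KO replicate 2 or any WT or DKO liver (limma adjusted p 0.0546 to 0.933), and its difference was -0.03 without WT replicate 1, when the mean also took in an interval that liver lacked. For Ppara loss 0 of the 8 gene means passed (4.89% of all), and for the interaction 0 (0.071%). Limma's unadjusted p was under 0.05 for 3 of the 8 in each of these, beside 2402 and 1543 of all 11264 genes.

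The size of these counts depended on how libraries were put on 1 scale. Centring each library on its median removed a shift of 0.25 (log2) between livers with and without Cpt2, of 0.19 for Cpt2 KO and of 0.26 for DKO. Without centring, Cpt2 loss gave 2 higher and 2 lower of the 23, DKO 4 higher and 2 lower, Cpt2 KO 1 higher and 4 lower, and Ppara KO 0 higher and 2 lower. The smallest peak width, a property of each library's peak list, was 217 to 223 bases in livers without Cpt2 and 198 to 210 in livers with it. With that width as a covariate, 0 of the 23 and 0 of the 18281 intervals passed for Cpt2 loss, and peak width and Cpt2 loss cannot be told apart here.

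**Figure D2:**
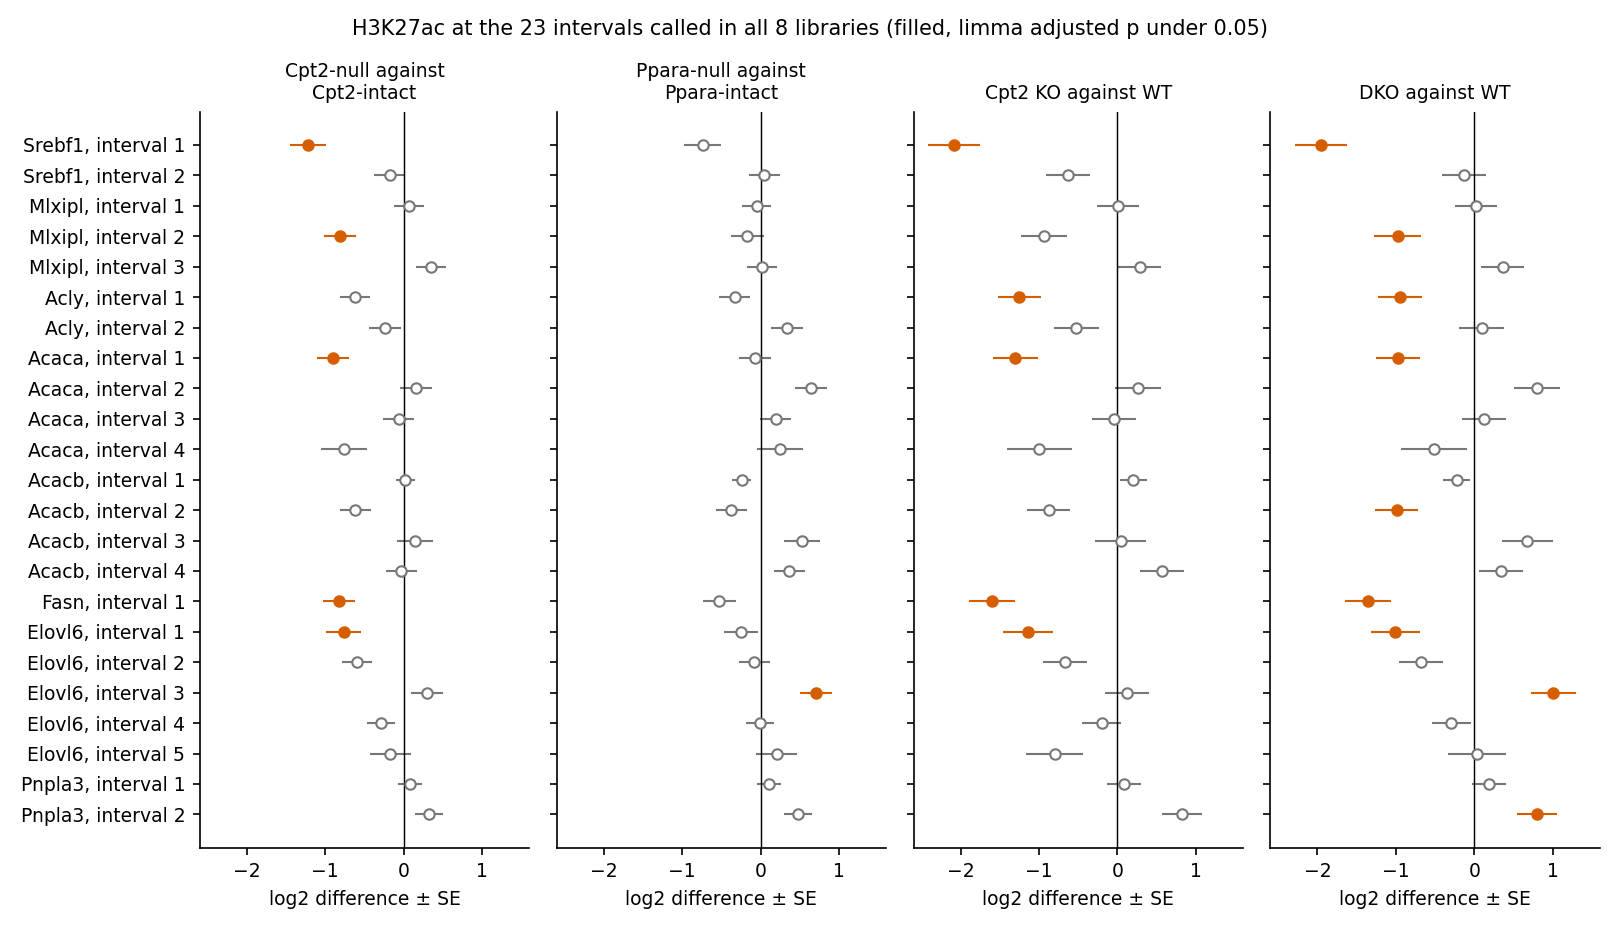
Points give the log2 difference in H3K27ac fold (limma coefficient, bars ± SE) at each of the 23 intervals, numbered in genome order within a gene, for 4 comparisons; filled points passed the adjusted p threshold of 0.05. Filled points for Cpt2 loss are all left of 0, and the furthest left is interval 1 of Srebf1 at -1.22.

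Srebf1 had less H3K27ac at its downstream start in every knockout than in WT. The Srebf1 gene body spans chr11:60199084-60224186, minus strand. The interval chr11:60205182-60211694 holds the annotated start at 60210471 and lies inside the gene. Its fold was 22.2 and 18.5 in WT livers, 4.14 and 7.5 with Cpt2 KO, 5.83 and 7.5 with Ppara KO and 6.8 and 6.0 with DKO. The WT pair was above all 6 knockout livers, which overlapped each other. The log2 difference was -1.22 ± 0.23 for Cpt2 loss (limma adjusted p = 0.00881), -2.09 ± 0.33 in Cpt2 KO against WT (adjusted p = 0.0048), -1.60 ± 0.33 in Ppara KO (adjusted p = 0.0186) and -1.96 ± 0.33 in DKO (adjusted p = 0.00274). For Ppara loss over all 8 livers it was -0.74 ± 0.23 and did not pass (limma adjusted p = 0.0727), and the interaction of 1.73 ± 0.47 did not pass either (adjusted p = 0.138). Leaving out Cpt2 KO replicate 1 moved the Cpt2 KO difference to adjusted p = 0.0504, and leaving out either WT or either Ppara KO liver moved the Ppara KO difference to between 0.0563 and 0.105.

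Around that start WT liver had H3K27ac calls that no knockout liver had. The interval chr11:60202623-60204979, inside the gene, was called at 9.11 and 12.5 in WT only. On the other side of the start, chr11:60211787-60212158 was called at 6.26 and 8.93 and chr11:60212258-60212705 at 5.06 and 5.68, again in WT only. These 3 are the Srebf1 losses counted for each of the 3 knockouts. They overlapped H3K9ac intervals called in both the WT and the Cpt2 KO liver, chr11:60202776-60203578 and chr11:60211815-60213728. The interval chr11:60202623-60204979 also overlapped chr11:60204044-60204242, called in the Cpt2 KO liver only, and chr11:60204433-60204802, called in the WT liver only. The 2 upstream starts of Srebf1, at 60222581 and 60220627, shared the interval chr11:60219675-60226231, with folds of 19.7 and 32.4 in WT livers, 27.5 and 13.2 with Cpt2 KO, 15.8 and 22.8 with Ppara KO and 25.3 and 31.8 with DKO. Both DKO livers were above both Ppara KO livers, every other pair of genotypes overlapped, and the difference for Cpt2 loss was -0.18 ± 0.20 (limma adjusted p = 0.568). The gene is known to give SREBP-1a and SREBP-1c from separate starts, and the table used here does not name which start belongs to which.

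**Figure D3:**
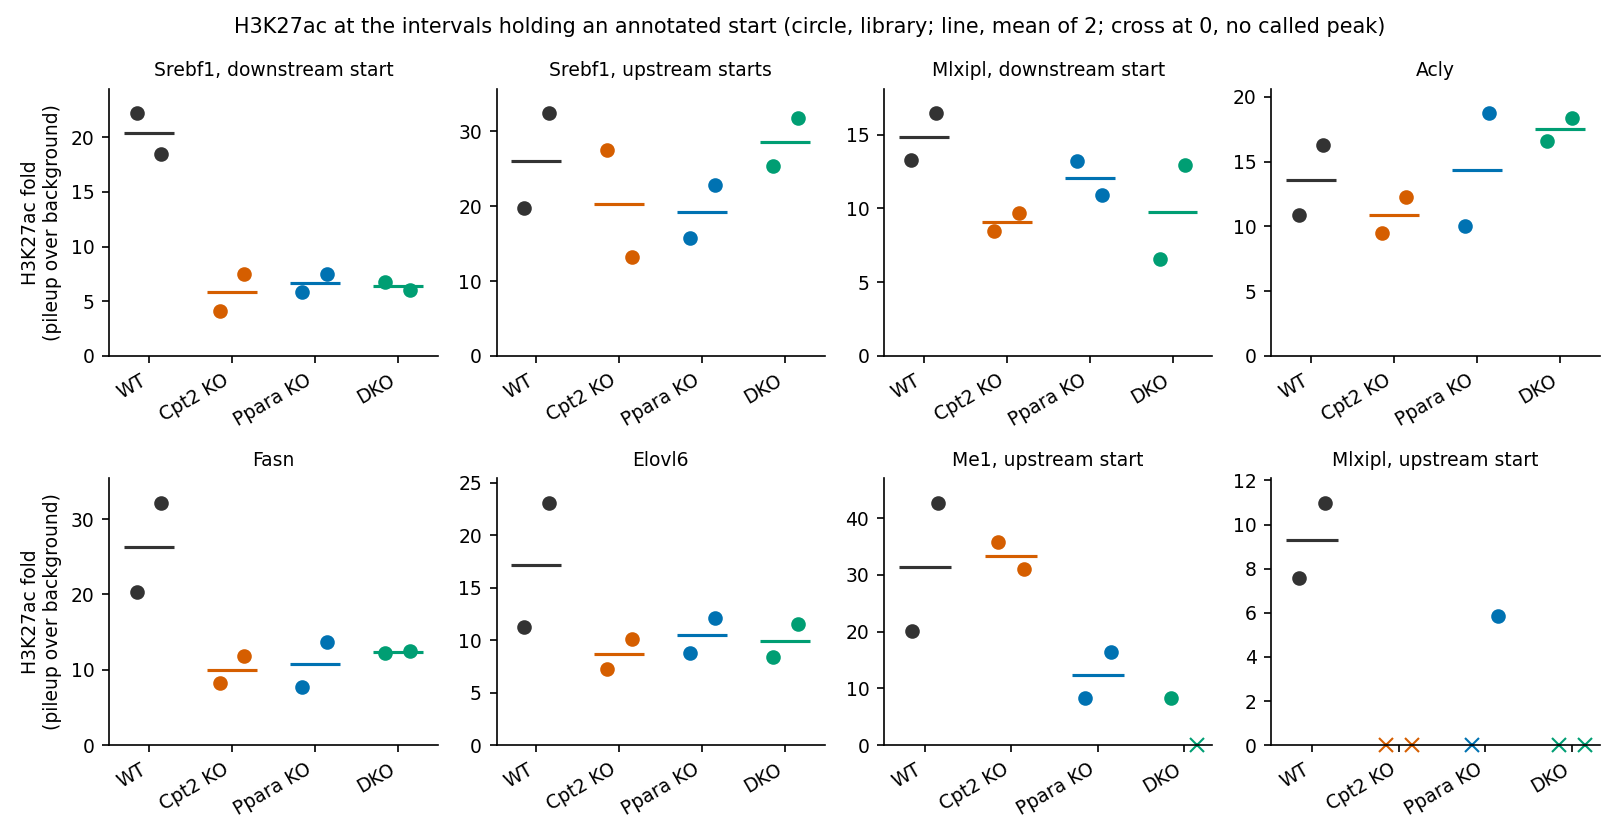
Each panel gives H3K27ac fold at the interval holding an annotated start, by genotype (circle, 1 liver; line, mean where both livers had a call; cross at 0, no call). Both WT livers stand above the 6 knockout livers at the downstream Srebf1 start and at Fasn, while in the Acly and upstream Srebf1 panels at least 1 WT liver lies among those of the knockouts.

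At Mlxipl, H3K27ac at the downstream start was lower without Cpt2. The upstream start had an H3K27ac call in both WT livers and 1 Ppara KO liver. The Mlxipl gene body spans chr5:135089890-135139768, plus strand. At the downstream start (135106891), the interval chr5:135105342-135110771 had folds of 13.3 and 16.5 in WT livers, 8.45 and 9.7 with Cpt2 KO, 13.2 and 10.9 with Ppara KO and 6.56 and 13.0 with DKO. Both Cpt2 KO livers were below all WT and Ppara KO livers, and the DKO livers were far apart. It was lower without Cpt2 by -0.81 ± 0.21 (limma adjusted p = 0.0251) and lower in DKO than in WT by -0.98 ± 0.29 (adjusted p = 0.0327). The Cpt2 KO difference of -0.93 ± 0.29 did not pass (limma adjusted p = 0.0506). The first call ended without Cpt2 KO replicate 1, DKO replicate 1, Ppara KO replicate 1 or WT replicate 2 (adjusted p 0.0619 to 0.0957), and the second without DKO replicate 1 or either WT liver (0.0687 to 0.258). At the upstream start (135089890), chr5:135089867-135091266 was called at 7.58 and 11.0 in WT and 5.86 in Ppara KO replicate 2, and in no other liver. This is the start whose window, shown above, holds the E box. ChREBP-alpha and ChREBP-beta are known to come from separate starts of Mlxipl. No test passed at 2 further intervals called in all livers, chr5:135101213-135102058 (4.57 to 7.55 over the 8 livers) and chr5:135149090-135150342, past the end of the gene (4.57 to 10.9).

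At Acly no difference passed at the promoter, and most of the smaller intervals along the gene had no call in the knockouts. The Acly gene body spans chr11:100476352-100528000, minus strand. The interval at its start (100528000), chr11:100526821-100529853, had folds of 10.9 and 16.3 in WT livers, 9.47 and 12.3 with Cpt2 KO, 10.0 and 18.7 with Ppara KO and 16.6 and 18.4 with DKO. Both DKO livers were above all WT and Cpt2 KO livers, every other pair of genotypes overlapped, and no comparison passed. Of the 17 Acly intervals, 11 and 17 were called in the WT livers, 2 and 2 for Cpt2 KO, 3 and 4 for Ppara KO and 4 and 4 for DKO. The largest of those lost in Cpt2 KO, chr11:100514761-100518490 inside the gene, had 9.0 and 12.8 in WT livers, 7.91 and 7.83 with Ppara KO and 9.29 and 11.4 with DKO. It had no call in either Cpt2 KO liver. The 4 intervals between chr11:100486765 and 100490775 were called in both WT livers, at 5.84 to 9.56, and in no other liver. Past the end of the gene and near Klhl11, chr11:100472146-100472902 had 9.33 and 13.3 in WT against 5.86 and 5.14 for Cpt2 KO, 5.43 and 6.0 for Ppara KO and 5.43 and 9.29 for DKO. Each WT liver was above the other 6. It was lower in Cpt2 KO by -1.25 ± 0.28 (limma adjusted p = 0.0144) and in DKO by -0.95 ± 0.28 (adjusted p = 0.0294). The Ppara KO difference, also -0.95 ± 0.28, did not pass (limma adjusted p = 0.0557). The Cpt2 KO call ended without either Cpt2 KO liver or WT replicate 2 (0.064 to 0.0939). The DKO call ended without DKO replicate 1 or WT replicate 2 (0.136 to 0.213).

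**Figure D4:**
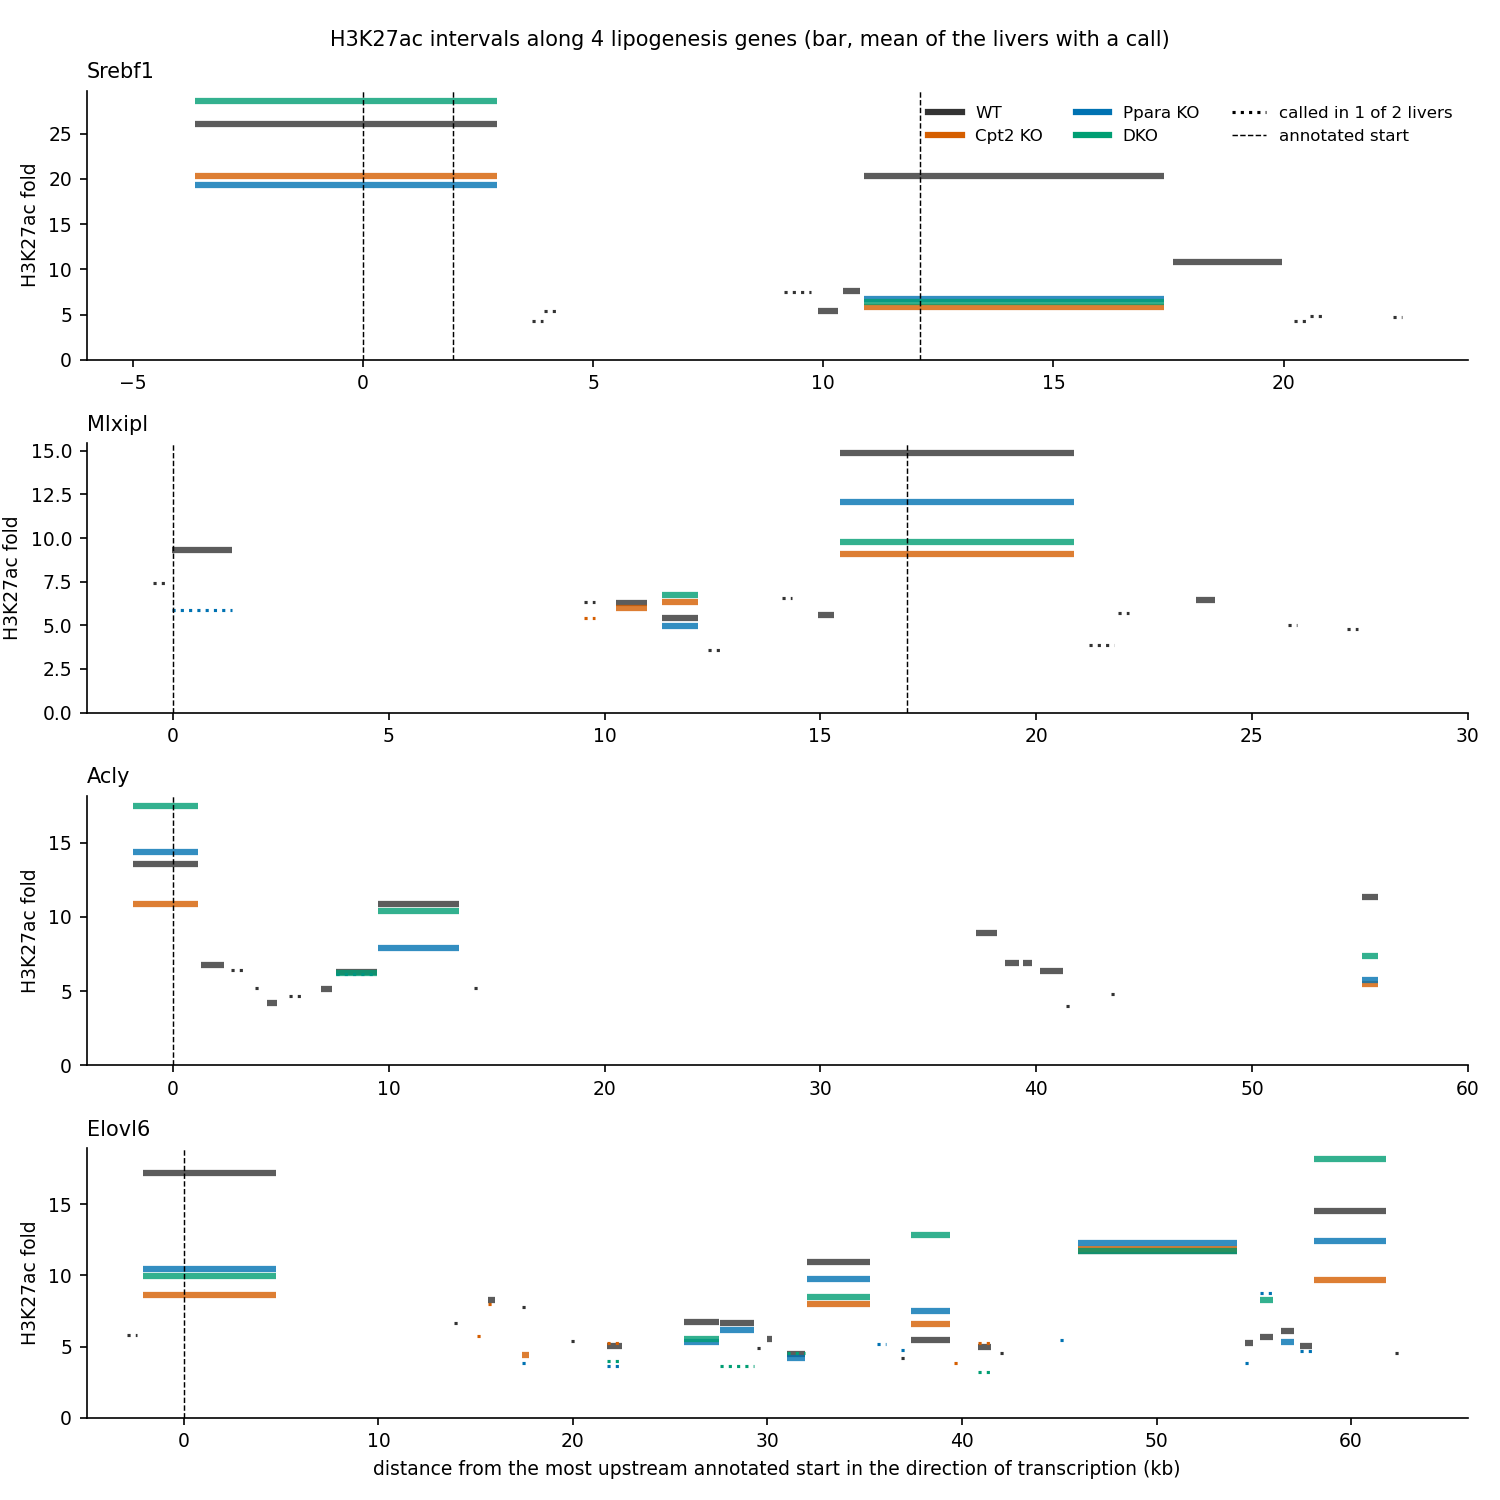
Bars give the mean H3K27ac fold of the called livers of a genotype at each interval, drawn at its span in kb from the most upstream annotated start (dashed lines, annotated starts; dotted bars, called in 1 of 2 livers). WT alone has bars flanking the downstream Srebf1 start and at most, not all, of the Acly intervals, while the Acly start keeps a bar in all 4 genotypes.

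Acaca and Acacb, the 2 acetyl-CoA carboxylases, had mixed profiles along gene bodies at chr11:84129635-84401651 and chr5:114146321-114250761, both on the plus strand. The starts that the promoter table gives, 84195438 for Acaca and 114165518 for Acacb, lie inside those bodies and in no H3K27ac interval. At Acaca, chr11:84146218-84147921, inside the gene and near Gm11437, had 12.6 and 14.5 in WT livers, 6.64 and 6.18 with Cpt2 KO, 11.0 and 8.43 with Ppara KO and 9.8 and 7.33 with DKO. Both WT livers were highest and both Cpt2 KO livers lowest. The log2 difference was -0.90 ± 0.20 for Cpt2 loss (limma adjusted p = 0.0161), -1.30 ± 0.29 in Cpt2 KO (adjusted p = 0.0135) and -0.97 ± 0.29 in DKO (adjusted p = 0.0298). Each call ended without some libraries: Cpt2 KO replicate 1, DKO replicate 2 or Ppara KO replicate 1 for the first (0.0536 to 0.0599), either Cpt2 KO liver or WT replicate 2 for the second (0.0533 to 0.0947) and DKO replicate 2 or either WT liver for the third (0.0735 to 0.221). The highest interval of Acaca, chr11:84168193-84169081, ran the other way, with 9.6 and 9.17 in WT livers, 16.5 and 10.5 with Cpt2 KO, 11.2 and 21.8 with Ppara KO and 16.8 and 24.0 with DKO. WT was lowest in both livers, and no comparison passed (0.64 ± 0.21 for Ppara loss, limma adjusted p = 0.0752). Deep in the gene, chr11:84290373-84290922 was called in both Cpt2 KO livers (6.8 and 4.0) and both DKO livers (5.17 and 7.5) and in none of the 4 with Cpt2.

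The highest interval of Acacb, chr5:114144875-114148180 near Ung, spans the 5′ end of the gene body. Folds were 20.5 and 29.9 in WT livers, 35.5 and 31.1 with Cpt2 KO, 21.5 and 25.9 with Ppara KO and 24.5 and 27.8 with DKO. Both Cpt2 KO livers were above the other 6, and no comparison passed. Another interval, chr5:114154458-114157681, had 11.4 and 11.5 in WT livers, 7.63 and 6.89 with Cpt2 KO, 6.0 and 8.86 with Ppara KO and 5.54 and 8.97 with DKO. Both WT livers were above the other 6, and the DKO difference of -0.99 ± 0.28 passed (limma adjusted p = 0.0244), though not without DKO replicate 1 or either WT liver (0.0624 to 0.168). The differences of -0.88 ± 0.28 in Cpt2 KO and -0.63 ± 0.28 in Ppara KO did not pass (limma adjusted p = 0.0506 and 0.173). Acacb held 3 of the 5 intervals gained in Cpt2 KO.

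Fasn, the fatty acid synthase, had less H3K27ac over its promoter in every knockout than in WT. The Fasn gene body spans chr11:120805958-120825166, minus strand. The interval chr11:120819137-120826754 holds the start at 120824547, extends toward Ccdc57 and was the only Fasn interval called in all 8 livers. Its fold was 20.3 and 32.2 in WT livers, 8.29 and 11.8 with Cpt2 KO, 7.75 and 13.7 with Ppara KO and 12.2 and 12.5 with DKO. WT livers were both above the other 6, and the Ppara KO livers spanned those of the other knockouts. The log2 difference was -0.82 ± 0.21 for Cpt2 loss (limma adjusted p = 0.0237), -1.60 ± 0.29 in Cpt2 KO (adjusted p = 0.00685), -1.30 ± 0.29 in Ppara KO (adjusted p = 0.0248) and -1.35 ± 0.29 in DKO (adjusted p = 0.00817). Ppara loss over all 8 livers gave -0.53 ± 0.21 (limma adjusted p = 0.145), and the interaction was 1.54 ± 0.42 (adjusted p = 0.138). Without WT replicate 2, the higher WT liver, none of the 4 calls held. The same was so for the Cpt2 loss without Cpt2 KO replicate 1, DKO replicate 2 or Ppara KO replicate 2 (0.0659 to 0.098 in all), for Cpt2 KO without Cpt2 KO replicate 1 (0.0647 to 0.0796), for DKO without DKO replicate 2 (0.052 to 0.0685) and for Ppara KO without Ppara KO replicate 1 (0.162 to 0.171). Upstream, chr11:120828530-120833366 had 6.43 and 14.8 in WT livers, 3.67 and 5.85 with Cpt2 KO, no call and 5.6 with Ppara KO and 4.07 and 4.07 with DKO. Downstream of the gene, chr11:120800161-120800874 had its highest folds in the livers without Cpt2, with no call and 4.43 in WT livers, 10.0 and 9.0 with Cpt2 KO, 3.25 and 8.36 with Ppara KO and 10.2 and 12.3 with DKO. Neither was called in all 8 livers, so neither was tested in the 8-liver fit.

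Elovl6, which lengthens palmitate, held 28 H3K27ac intervals, the most of the 10 genes, and they did not move together. The Elovl6 gene body spans chr3:129532386-129638495, plus strand. At the start (129532386), chr3:129530262-129537095 had 11.3 and 23.1 in WT livers, 7.23 and 10.1 with Cpt2 KO, 8.83 and 12.1 with Ppara KO and 8.38 and 11.5 with DKO. WT replicate 2 stood above all others, and WT replicate 1 lay among the knockouts. It was lower by -0.76 ± 0.22 for Cpt2 loss (limma adjusted p = 0.0395), -1.14 ± 0.31 in Cpt2 KO (adjusted p = 0.031) and -1.01 ± 0.31 in DKO (adjusted p = 0.0368). Without WT replicate 2 none of the 3 passed. Cpt2 loss passed only with all livers or without WT replicate 1 or Cpt2 KO replicate 2 (0.0659 to 0.153 otherwise), Cpt2 KO also failed without Cpt2 KO replicate 1 (0.222 to 0.244) and DKO without either DKO liver (0.0853 to 0.254). Far into the gene, chr3:129569771-129571753 was opposite, with 3.78 and 7.17 in WT livers, 6.86 and 6.38 with Cpt2 KO, 6.71 and 8.33 with Ppara KO and 12.7 and 13.0 with DKO. Both DKO livers were above the other 6. It rose by 0.71 ± 0.20 with Ppara loss (limma adjusted p = 0.0487) and by 1.01 ± 0.29 in DKO (adjusted p = 0.0261). Only leaving out WT replicate 2 kept the first (0.0941 to 0.137 otherwise), and the second ended without either DKO liver or WT replicate 1 (0.0773 to 0.15). The highest Elovl6 interval, chr3:129590459-129594209, had 13.0 and 16.0 in WT livers, 9.88 and 9.44 with Cpt2 KO, 6.0 and 18.9 with Ppara KO and 18.7 and 17.6 with DKO, and passed no test. The 8 Elovl6 intervals lost in Cpt2 KO lay in the gene, with midpoints 26617 to 57696 bases from the start.

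Scd1, the stearoyl-CoA desaturase, had 3 H3K27ac intervals and none called in all livers. The Scd1 gene body spans chr19:44394450-44407709. The main interval, chr19:44387470-44389361, lies 6035 bases outside the gene body and had 13.0 and 16.4 in WT livers, 10.6 and 10.8 with Cpt2 KO, no call and 5.32 with Ppara KO and 7.79 and 10.5 with DKO. WT livers were highest and Ppara KO livers lowest. In a fit over all intervals that filled a missing call with the lowest fold of its library, Ppara KO against WT gave -2.05 (limma adjusted p = 0.0251) and Ppara loss gave -1.18 (adjusted p = 0.0352). Both rest in part on the filled Ppara KO value of 2.29, and left-out libraries are not given for this fit. Beside the gene, chr19:44408137-44408742 was called in 3 of the 4 livers without Cpt2 (5.1 in Cpt2 KO replicate 1, 7.0 and 8.25 in DKO) and in none with it.

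Me1, the malic enzyme that supplies NADPH, had its lowest folds in the livers without Ppara. The Me1 gene body spans chr9:86581363-86695914, minus strand. Its upstream start (86695914) lies in chr9:86693356-86696693, with 20.2 and 42.8 in WT livers, 35.8 and 31.0 with Cpt2 KO, 8.4 and 16.5 with Ppara KO and 8.25 and no call with DKO. All 4 livers with Ppara were above all 4 without it, and the Cpt2 KO livers lay within the WT range. With 7 of 8 calls it was outside the 8-liver fit. In the fit that filled the missing DKO call, Ppara loss gave -2.15 (limma adjusted p = 0.0307), DKO -3.04 against WT (adjusted p = 0.0133), Cpt2 loss -0.89 (adjusted p = 0.179) and Ppara KO -1.31 (adjusted p = 0.326). The first 3 rest in part on the filled value, 2.33, the lowest fold of that library. The Ppara KO difference takes in no filled value and did not pass. Left-out libraries are not given for this fit. Me1 has long been known as a gene that PPARA agonists raise.

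Pnpla3 had no H3K27ac interval called in all livers at its start (84167816), where a single peak of 11.7 was called in WT replicate 2. The Pnpla3 gene body spans chr15:84167776-84189521, plus strand. Its 2 fully called intervals lie past the end of the gene toward Samm50. The higher, chr15:84191662-84193726, had 13.0 and 20.1 in WT livers, 22.3 and 17.8 with Cpt2 KO, 17.4 and 17.0 with Ppara KO and 23.4 and 21.9 with DKO, and passed no test. The other, chr15:84195057-84197898, had 4.38 and 5.1 in WT livers, 11.2 and 8.45 with Cpt2 KO, 8.53 and 9.89 with Ppara KO and 8.44 and 12.1 with DKO. The WT pair was below the other 6. It rose by 0.97 ± 0.26 in Ppara KO (limma adjusted p = 0.0415) and 0.80 ± 0.26 in DKO (adjusted p = 0.0431), with Cpt2 KO at 0.82 ± 0.26 (adjusted p = 0.05). The DKO call ended without any single library (0.0563 to 0.219) and the Ppara KO call without any WT, Cpt2 KO or Ppara KO library (0.0578 to 0.168).

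Other genes of fatty acid and triglyceride synthesis, a list of 23 with 57 tested H3K27ac intervals of 178, were read the same way. For Cpt2 loss 6 were lower and 2 higher (7.38% and 4.9% of all intervals), with a median of -0.20 on this list. For Ppara loss 5 were lower and 3 higher (4.15% and 3.19% of all), with a median of -0.06. Mid1ip1, which encodes a protein that stimulates acetyl-CoA carboxylase, had 25.5 and 42.6 in WT livers, 12.6 and 13.5 with Cpt2 KO, 15.1 and 16.0 with Ppara KO and 13.6 and 15.8 with DKO. Each WT liver was above the other 6, and Cpt2 loss gave -0.98 ± 0.16 (limma adjusted p = 0.00493). Each knockout alone was also below WT there, by -1.56 ± 0.19 for Cpt2 KO, -1.07 ± 0.19 for Ppara KO and -1.47 ± 0.19 for DKO (limma adjusted p = 0.00451, 0.0165 and 0.00182 in the fit of gene means, which for Mid1ip1 is this interval). Insig1, which holds the SREBP escort protein in the endoplasmic reticulum, had 19.4 and 25.7 in WT livers, 11.3 and 10.9 with Cpt2 KO, 16.2 and 20.9 with Ppara KO and 17.3 and 20.0 with DKO (-0.76 ± 0.14 for Cpt2 loss, limma adjusted p = 0.00856). Scap, that escort protein, was lower without Cpt2 at 2 intervals (-0.83 and -0.68, limma adjusted p = 0.0111 and 0.0228) and higher without Ppara at another (0.92, adjusted p = 0.00783). Gpam, which starts glycerolipid synthesis, fell at 3 intervals without Ppara, by -1.21 at the largest (limma adjusted p = 0.00482), and at 1 other without Cpt2 (-0.95, adjusted p = 0.00912).

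Among the other passes on that list were Acss2 lower (-0.75, limma adjusted p = 0.0195) and Fads1 and Dgat2 higher without Cpt2 (0.50 and 0.71, adjusted p = 0.0483 and 0.0247). Without Ppara, Elovl5 was lower at 2 intervals (-1.14 and -0.78, limma adjusted p = 0.00992 and 0.0452) and Pgd was higher (0.92, adjusted p = 0.0309). No left-out library ended the calls of Mid1ip1, Insig1, the largest of Gpam, its Cpt2 interval, or the -0.83 and 0.92 of Scap. The others named here ended without at least 1 library: Acss2 without Cpt2 KO replicate 2, DKO replicate 2 or Ppara KO replicate 1 (0.055 to 0.0697), the larger of Elovl5 without Cpt2 KO replicate 2 (0.0534) and Fads1 without any of the 8 (0.062 to 0.173). The -0.68 of Scap and Dgat2 each ended without any of 5 libraries (0.0549 to 0.0904 and 0.0531 to 0.107), as did the smaller 2 of Gpam (0.0538 to 0.134) and Pgd (0.0736 to 0.119). The smaller of Elovl5 ended without any of 6 (0.058 to 0.177). Against WT, 5 of the 57 intervals of this list were lower and 3 higher for Cpt2 KO (7.69% and 5.82% of all intervals). For Ppara KO 2 were lower and 4 higher (3.59% and 2.83%), and for DKO 14 lower and 5 higher (11.5% and 8.62%). The interaction passed at 0 (0.00547% of all).

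H3K4me1 gave no passing difference at these genes. At the 42 intervals called in all 8 livers (Me1 had none), 0 passed for Ppara loss (0.128% of all 19526 passed), Cpt2 loss (0.0%), the interaction (0.0%), Cpt2 KO (0.0%), Ppara KO (0.0%) or DKO (0.133%). Limma's unadjusted p was under 0.05 at 7, 6, 0, 5, 4 and 8 of the 42 in that order. Over all 19526 intervals the same counts were 2721, 1916, 566, 1502, 1648 and 3793. Of the 9 gene means 0 passed for Ppara loss (0.0122% of all), Cpt2 loss (0.0%) or the interaction (0.0%). Their counts at an unadjusted limma p under 0.05 were 1, 1 and 0, beside 1012, 630 and 256 of all 8184 genes. The lowest adjusted p of the 42 was at Srebf1, chr11:60203114-60205004, inside the gene with its midpoint 6412 bases past the downstream start: 10.7 and 12.1 in WT livers, 5.17 and 9.03 with Cpt2 KO, 7.83 and 4.62 with Ppara KO and 4.71 and 4.0 with DKO. Both WT livers were above the other 6, and the DKO difference was -1.39 (limma adjusted p = 0.0851). At the Fasn promoter side, chr11:120824731-120827105 had 8.74 and 8.18 in WT livers, 4.71 and 6.02 with Cpt2 KO, 6.11 and 5.66 with Ppara KO and 4.86 and 4.17 with DKO, again with WT above the other 6 and no pass (DKO -0.91, limma adjusted p = 0.111).

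Calls of H3K4me1 were lost most often in DKO, at these genes and over all intervals. Cpt2 KO liver lost 15 of 162 intervals (9.26%, against 3.64% of all 103014) and gained 0 (0.0%, against 2.87%), Ppara KO lost 18 (11.1%, against 4.89%) and gained 1 (0.617%, against 3.5%), and DKO lost 37 (22.8%, against 10.6%) and gained 9 (5.56%, against 10.7%). Elovl6 with 8, Mlxipl with 6 and Acly with 5 had the most DKO losses. Cpt2 loss removed 7 (4.32%, against 1.3%) and added 0 (0.0%, against 1.41%) by the 4-liver count, and Ppara loss removed 10 (6.17%, against 2.84%) and added 3 (1.85%, against 1.96%). The smallest peak width divided these libraries too, at 196 to 200 bases in both WT livers, Cpt2 KO replicate 2 and Ppara KO replicate 1 and at 210 to 221 in the other 4. Of the 37 DKO losses, 21 were called in Cpt2 KO replicate 2 but 7 in replicate 1, and 16 in Ppara KO replicate 1 but 6 in replicate 2; the part of peak width in this was not tested. At Mlxipl, chr5:135113349-135114794 had the highest WT folds of the intervals lost in DKO, with 13.6 and 13.3 in WT livers, no call and 9.88 with Cpt2 KO, 7.85 and 5.07 with Ppara KO and no call with DKO. At Me1, chr9:86695173-86695582 beside the upstream start was called in WT only (5.0 and 4.86).

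H3K9ac was listed as called or not in 1 WT and 1 Cpt2 KO liver, with no fold, so the comparison is of those 2 libraries and has no test. Of the 77 intervals, 41 were in both, 24 in WT only (31.2%, against 20.8% of all) and 12 in Cpt2 KO only (15.6%, against 23.9%). Fasn had 10 of its 13 in WT only, Acly 5 of 9 and Mlxipl 4 of 8, while Srebf1 had 5 of 14 in Cpt2 KO only and 1 in WT only. All 3 Srebf1 starts, both Mlxipl starts and the starts of Acly, Fasn and Elovl6 lay in an H3K9ac interval called in both livers.

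Among the members, the highest fully called intervals of Acly, Elovl6, Fasn and Srebf1 followed the mean of the 8 genes across libraries (Pearson r 0.822, 0.845, 0.787 and 0.732 over 8 libraries), Mlxipl less so (0.444), and Acaca, Pnpla3 and Acacb not (0.135, -0.08 and -0.165). Each gene is part of that mean, so these values are a description. That mean of centred log2 folds was 0.09 and 0.35 for WT, -0.26 and -0.28 for Cpt2 KO, -0.21 and 0.26 for Ppara KO and 0.00 and 0.06 for DKO. Both Cpt2 KO livers were low, and the Ppara KO livers were far apart. Of 11264 genes compared, those nearest to it outside both lists were Caskin2 (r 0.969), Tmc7 (0.967), Sil1 (0.966), Nktr (0.948) and Usp2 (0.947), with the 8 points sharing the libraries and their depth.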

How the data were processed

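The deposited files were, for each H3K27ac and H3K4me1 library, a peak list, and for each mark a consensus list of intervals. Reads were aligned to mm10 with BWA and peaks called with MACS2 2.1.0, per the submitters' processing notes. The step that called H3K9ac is not given in the sources used here. H3K27ac and H3K4me1 libraries shared a pooled input, and H3K9ac had another, per the labels. The value used is the fold over local background (a ratio) that the authors deposited for each peak, and the −log10 q-value deposited beside it served only as a filter. The peak names of 1 H3K27ac library (Ppara KO replicate 2) carry the word of another build, and its coordinates were used as mm10.

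An interval took the highest fold of peaks overlapping it by at least 1 base. Log2 folds were centred on each library's median over intervals called in all 8 libraries, with no pseudocount, and tested with limma 3.58.1 (R 4.3.3) over all such intervals in 1 fit of the 4 genotypes, with Benjamini-Hochberg adjustment at 0.05. The contrasts are Cpt2 loss, Ppara loss, their interaction and each knockout against WT. Gene means average a gene's tested intervals. The script was tested on simulated data. Named per gene were the interval of highest mean fold, those holding a start, those past the threshold and those lost or gained, at most 5 by size, with other intervals named after their values were seen; also passing genes of the pathway list and the 5 genes of most similar pattern. A passing interval of that list is counted but not reported here by name. Members, lists and tests were chosen with earlier results of these data known. Labels do not say how replicate livers were drawn, so p-values measure the spread between these samples. Same-numbered livers did not deviate strongly in the same direction (correlations -0.065 to 0.172 in H3K27ac and -0.489 to 0.101 in H3K4me1), so numbers were not used as pairs. The -0.489 was between Cpt2 KO and Ppara KO, whose same-numbered livers deviated in opposite directions, and its cause was not tested. Alternatives were no centring, quantile normalization, filled missing calls, a −log10 q minimum of 10, an overlap of 50%, the mean of overlapping peaks, each gene's highest interval, gene body only, a replicate block, peak width as a covariate and each library left out.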

Additional observations from a re-analysis of the deposited data

How the results depend on the processing

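No named difference reversed: of 685 recomputed values of 44 named differences, 469 kept their side of the threshold and 216 no longer passed. Filling missing calls put all 127 H3K27ac intervals under test, not the 23 alone. Counts that passed rose to 8 for Ppara loss, 27 for Cpt2 loss, 25 for Cpt2 KO, 17 for Ppara KO and 28 for DKO. Livers without a call took a low filled value, so an interval called in WT alone could pass several comparisons at once. Srebf1 chr11:60202623-60204979 passed for Ppara loss, Cpt2 loss and each knockout. The share of all intervals that passed is not given here for this fit, the fit without centring, the replicate block or the left-out fits. With peak width as a covariate the count for each of these comparisons was 0, as was the Cpt2 gene mean count, which was also 0 without centring. For Ppara loss, a −log10 q minimum of 10 and quantile normalization each gave 0, and the share of all intervals is not given for these either. Leaving out 1 library gave 0 to 2 for Ppara loss, 1 to 6 for Cpt2 loss, 0 to 7 for Cpt2 KO, 0 to 4 for Ppara KO and 2 to 11 for DKO. For gene means it gave 0 to 1 for Ppara loss, 1 to 2 for Cpt2 loss and 0 to 1 for the interaction, and for H3K4me1 intervals 0 to 4 for Ppara loss and 0 to 2 for DKO. With a replicate block the counts were 7 for Cpt2 loss, 1 for Ppara loss, 7 for Cpt2 KO, 3 for Ppara KO, 9 for DKO and 3 for the Cpt2 gene means, and 0 elsewhere. In the H3K27ac calls, gene bodies alone gave 3 gained in Cpt2 KO and 1 by Cpt2 loss, and the q minimum gave 15 lost in Cpt2 KO and 0 gained in Ppara KO. In the H3K4me1 calls, gene bodies alone gave 10 lost in Ppara KO, 24 lost and 5 gained in DKO and 4 lost by Ppara loss, and the q minimum gave 2 gained in Cpt2 KO and 2 in Ppara KO. The causes of these moves were not tested. With 2 livers a genotype, and a fold only where a peak was called, intervals that vanish in a knockout cannot enter the 8-liver fit.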
